A study of Mus musculus with 6 samples.

Results

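Circular RNAs (circRNAs) made from genes of the inhibitory synapse were examined in the cortex of Control mice and mice with pilocarpine-induced temporal lobe epilepsy (TLE). They were all circRNAs whose host gene was one of 6 genes, namely Gabra2, Gabra4, Gabrb1, Gabrb2 and Gabrg3, which encode subunits of the GABA-A receptor, and Gphn, which encodes gephyrin. All 6 hosts had at least 1 circRNA, giving 21 of the 11171 circRNAs listed. Gphn had 10, Gabra2 had 7 and the other 4 hosts had 1 each. No circRNA of the 21 listed a second host. The mice were male C57BL/6 animals (the labels name no substrain, the methods of the study C57BL/6J) of 6 weeks, with 3 libraries per group and 1 mouse per library. Control mice received saline. TLE mice received scopolamine methyl bromide and then pilocarpine, their Status Epilepticus was ended with diazepam, and the cortex was taken 24 h after it. Diazepam is itself a positive modulator of the GABA-A receptor. Scopolamine, pilocarpine and diazepam were all replaced by saline in Control mice, so the effects of these drugs and of seizures cannot be told apart here. The TLE libraries describe the first day after an acute insult and not a later stage with spontaneous seizures.

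The GABA-A receptor is a pentameric chloride channel that opens when GABA binds, and it carries most fast inhibition in the cortex. Most receptors combine alpha and beta subunits with a gamma or a delta subunit. GABA binds between an alpha and a beta subunit, benzodiazepines such as diazepam bind between an alpha and a gamma subunit, and gephyrin forms the lattice under the membrane that holds receptors at inhibitory synapses. A circRNA is formed when the end of an exon is spliced back to the start of the same or an upstream exon. It is recognised by the reads that cross this back-spliced junction, and its level is not that of the mRNA of the host.

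Levels are given in SRPBM, the spliced-read unit of the study, in which junction reads are scaled to the mapped reads of the library. Within each library all values were whole multiples of 1 step within a tolerance of 0.1 step. The step was taken as 1 junction read, so the read numbers below are inferred from the values and are not given in the table. The smallest value listed was then 2 reads. The 6 libraries held 32504 to 56516 junction reads each, and 3 reads, the floor used below, were worth 25.6 to 31.0 SRPBM. A value of 0 is a value listed at 0. The floor covers counting error only, while the 95% intervals below come from limma and rest on the spread between libraries. The 21 circRNAs held 561 junction reads in all, of which 57.4% belonged to 3 circRNAs, those that led Gabra4, Gabra2 and Gphn. Marker hosts of neurons (5 of 8 with a circRNA listing no other host) summed to 4008 to 4557 SRPBM in Control and 4721 to 5945 SRPBM in TLE. Marker hosts of excitatory neurons (2 of 4) summed to at most 77.9 SRPBM, as did those of interneurons (1 of 5). Astrocyte (1 of 5) and oligodendrocyte markers (1 of 6) reached at most 34.6 and 34.2 SRPBM, and those of microglia (0 of 4), endothelium (0 of 5) and tissues other than brain (0 of 4) had no such circRNA. These lists were read in circRNAs, so a marker at 0 says nothing of its mRNA. A marker named only in rows with a second host was not counted.

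The junction identifies each circRNA. For the leading circRNA of each host, and for the Gabra2 circRNA that was listed in Control libraries alone, the 30 bases across the junction are given 5′ to 3′ on the strand of the host, as they would be read in the circle. The last 15 bases of the downstream exon are in lower case and the first 15 bases of the upstream exon are in capitals. They were joined from GENCODE M21 transcripts of build GRCm38.
Gabra4 circ_0008248 (exon 8 to exon 3): gaaacatcccttcagGTCCTGTTACAGAAG
Gabra2 circ_0008245 (exon 8 to exon 4): caagaactgtgtttgACAGTATTACTGAAG
Gabra2 circ_0008242 (exon 9 to exon 5): gtagtcaatgacaagGAGTATACAATAGAT
Gabrb1 circ_0008251 (exon 8 to exon 6): atgaacaaagtccaaATGGCTATACCACGG
Gabrb2 circ_0000771 (exon 9 to exon 7): ctggatgtcaacaagATGGCTACACAACTG
Gabrg3 circ_0009274 (exon 5 to exon 4): tgaccttctctagctGAATACCAAATTGAT
Gphn circ_0001627 (exon 17 to exon 11): aattgtaggagacaaGTCACAGTGCTGTAG

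Gabra4 encodes the alpha4 subunit, which is found largely in receptors outside the synapse together with the delta subunit. Its single circRNA, circ_0008248, had the highest mean of the 21, 233 SRPBM, and ranked 218 among all circRNAs. It spanned chr5:71623855-71642326 on the minus strand and joined exons 3 to 8 of the 9-exon transcript into 929 nt, all coding, holding codons 69 to 378 of 552. It measured 239, 121 and 181 SRPBM in Control 1, 2 and 3. It measured 300, 254 and 303 SRPBM in TLE 1, 2 and 3. Every TLE library lay above every Control library. The means were 180 ± 59.2 SRPBM in Control and 286 ± 27.2 SRPBM in TLE (SD, n = 3 each).

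Fold changes were fitted after 17.1 SRPBM, the lowest value in the table other than 0, was added to each value as a pseudocount. On this log2(SRPBM + 17.1) scale, the Gabra4 circRNA was 0.66 higher in TLE, with a standard error of 0.30 and a 95% interval of 0.02 to 1.29. This did not reach the log2 fold change of 1.5 required for a call, and the adjusted p over all 4271 circRNAs tested in limma was 0.881 (unadjusted p = 0.0433). Without each library in turn, the difference ranged from 0.42 (without Control 2) to 0.87 and the unadjusted p in limma from 0.0215 to 0.167, and it exceeded 0.05 without Control 2, Control 3, TLE 1 or TLE 3. With every library rescaled to the same total, the difference was 0.45 and the unadjusted p in limma was 0.126. Without a variance trend the unadjusted p in limma was 0.161, and with circRNAs of low values kept it was 0.0637. It was 0.0413 and 0.0392 with a pseudocount of 8.55 and 1 SRPBM, and 0.0408 with the replicate number as a block. The neuron marker sum, not rescaled to library totals, was also higher in every TLE library than in every Control library. So were 10.7% of all hosts tested. The groups overlapped for excitatory neuron markers, at 18.6 to 60.3 SRPBM in Control and 0 to 77.9 SRPBM in TLE. They also overlapped for interneuron markers, at 17.1 to 65.1 and 0 to 77.9 SRPBM. The part of neuron markers in the Gabra4 difference was not tested. In bulk cortex, a change in the number of cells of a type and a change in RNA per cell cannot be told apart.

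Gabra2 encodes the alpha2 subunit, which is concentrated at synapses. Its 7 circRNAs lay on chr5, where 3 of the 6 hosts lie (Gabra2, Gabra4 and Gabrb1). Of these 7, 5 joined annotated exons. The leading circRNA, circ_0008245, spanned chr5:71006107-71034797 on the minus strand and joined exons 4 to 8 of 10 into 669 nt, holding codons 63 to 286 of 451. It measured 248, 83.7 and 112 SRPBM in Control and 93.0, 219 and 268 SRPBM in TLE. The groups overlapped, with the second highest value in Control 1, and the log2 fold change was 0.37 (95% interval -0.52 to 1.25). It ranged from 0.08 without Control 2 and 0.09 without TLE 3 to 0.77 without Control 1 and 0.78 without TLE 1, and was 0.16 after rescaling.

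Circ_0008242 of Gabra2 was the opposite case. It spanned chr5:70973425-71014636 and joined exons 5 to 9 into 804 nt. It measured 25.6, 37.2 and 25.8 SRPBM in Control, or 3, 4 and 3 inferred reads. It was listed at 0 in all 3 TLE libraries. The groups did not overlap, but the Control values stood at or just above the floor. The Control mean was 29.6 ± 6.61 SRPBM, close to the mean floor of the TLE libraries, 27.7 SRPBM. The Control values carry counting error as well, so no bound on the fold difference is given. It entered the comparison of circRNAs above 0 in at least 3 libraries through the Control libraries alone, so its groups had to differ and its p is not given. The fitted log2 fold change of -1.44 depended on the pseudocount. It missed the call at 1.5, and it passed that call with a pseudocount of 8.55 or 1 SRPBM and after rescaling of the libraries.

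The other circRNAs of Gabra2 used the same few ends. The start of exon 4 was the upstream end of 4 circRNAs that held 78.3% of the SRPBM of the host, and the start of exon 5 was that of the other 3, with 21.7%. The share of exon 4 was 92.5, 63.2 and 70.0% in Control and 64.7, 91.7 and 74.5% in TLE, so the groups overlapped. The end of exon 8 closed circ_0008245 and circ_0008244 (exons 5 to 8), which together held 73.5%. The circRNAs closed at the end of exon 9, which are circ_0008242 and circ_0008243 (exons 4 to 9), summed to 42.7, 37.2 and 43.1 SRPBM in Control. They summed to 0, 0 and 43.3 SRPBM in TLE, where TLE 3 stood level with the Control libraries.

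The remaining Gabra2 circRNAs were low and their groups overlapped. Circ_0008244 measured 0, 27.9 and 51.7 SRPBM in Control and 31.0, 26.3 and 121 SRPBM in TLE, and its log2 fold change of 0.82 (95% interval -0.60 to 2.23) was the highest among the 14 tested. Circ_0008246, of exons 4 to 7, measured 51.3, 27.9 and 34.5 SRPBM in Control and 20.7, 52.6 and 43.3 SRPBM in TLE. Circ_0008240 and circ_0008241 were listed in 1 and 2 libraries, at 2 or 3 reads each. Both ended at position 70960768, within exon 10 and 1037 bases past the end of the coding sequence, in the 3′ UTR and on no annotated exon boundary. Which of these circRNAs made up the host in each library is shown by the stacked plot.

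**Figure D1:**
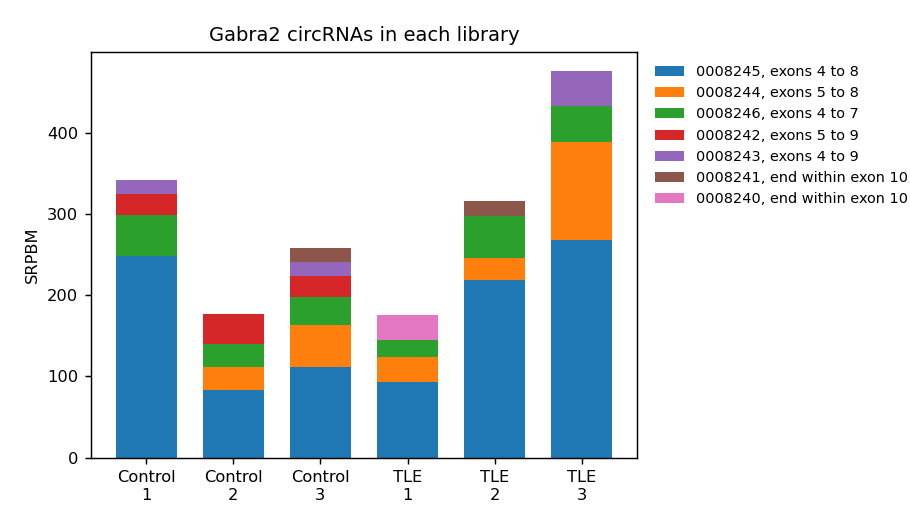
SRPBM of the 7 Gabra2 circRNAs in each library (vertical axis, SRPBM; horizontal axis, the 3 Control and 3 TLE libraries), stacked so that the top of a bar is the sum of the host. Circ_0008245 is the largest block in each library, circ_0008242 appears in the 3 Control libraries at 25.6 to 37.2 SRPBM and in no TLE library, and the sums run from 176 to 476 SRPBM in TLE and from 177 to 342 SRPBM in Control.

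The beta subunits form the GABA site together with the alpha subunits. Gabrb1 and Gabrb2 encode beta1 and beta2, and each had 1 circRNA. Circ_0008251 of Gabrb1 spanned chr5:72108308-72122193 on the plus strand and joined exons 6 to 8 of 9. Circ_0000771 of Gabrb2 spanned chr11:42591858-42597785 on the plus strand and joined exons 7 to 9 of 10. Both were 536 nt long and were made of exons of 138, 153 and 245 nt, holding codons 182 to 360 of 474 in Gabrb1 and 181 to 359 of 474 in Gabrb2. Their sequences were identical at 366 of 536 bases (68.3%), and the 30-base junctions printed above differed at 13 bases.

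The beta circRNAs stood near the floor. That of Gabrb1 measured 0, 18.6 and 34.5 SRPBM in Control and 31.0, 26.3 and 26.0 SRPBM in TLE. That of Gabrb2 measured 25.6, 37.2 and 0 SRPBM in Control and 41.3, 0 and 17.3 SRPBM in TLE. No value of either exceeded 4 reads and the groups overlapped in both. The log2 fold changes were 0.50 (95% interval -0.84 to 1.85) and -0.07 (95% interval -1.52 to 1.38), intervals that include changes past the threshold in at least 1 direction. That of Gabrb1 was 0.06 without Control 1, 0.86 without Control 3 and 1.69 with a pseudocount of 1 SRPBM.

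Gabrg3 encodes the gamma3 subunit, 1 of the gamma subunits that complete the benzodiazepine site. Its circRNA circ_0009274 had the shortest span of the 21, 2539 bp at chr7:56982625-56985163 on the minus strand, and joined exons 4 and 5 of 10 (221 and 83 nt) into 304 nt. It measured 25.6, 0 and 43.1 SRPBM in Control and 0, 26.3 and 0 SRPBM in TLE. The groups overlapped at 11 reads in all, and the log2 fold change was -0.60 (95% interval -1.96 to 0.76). It was -0.21 without Control 3, -0.37 without TLE 1 or TLE 3, -1.05 without TLE 2, -1.12 without Control 2 and -1.81 with a pseudocount of 1 SRPBM.

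The exon lengths showed how alike the alpha subunit circRNAs were. Exons 4 to 8 of Gabra2 are 68, 221, 83, 144 and 153 nt long, and exons 3 to 7 of Gabra4 have the same lengths in the same order. The leading Gabra2 circRNA is made of these 5 exons, and the Gabra4 circRNA holds them and 1 further exon of 260 nt. Over the shared 669 nt the circRNAs were identical at 66.5% of bases, and their junctions differed at 16 of 30 bases. The 2 exons in the Gabrg3 circRNA, of 221 and 83 nt, also have the lengths of exons 5 and 6 of Gabra2, with 61.8% of bases identical over 304 nt. The codons held by each circRNA are drawn on the map of the proteins.

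**Figure D2:**
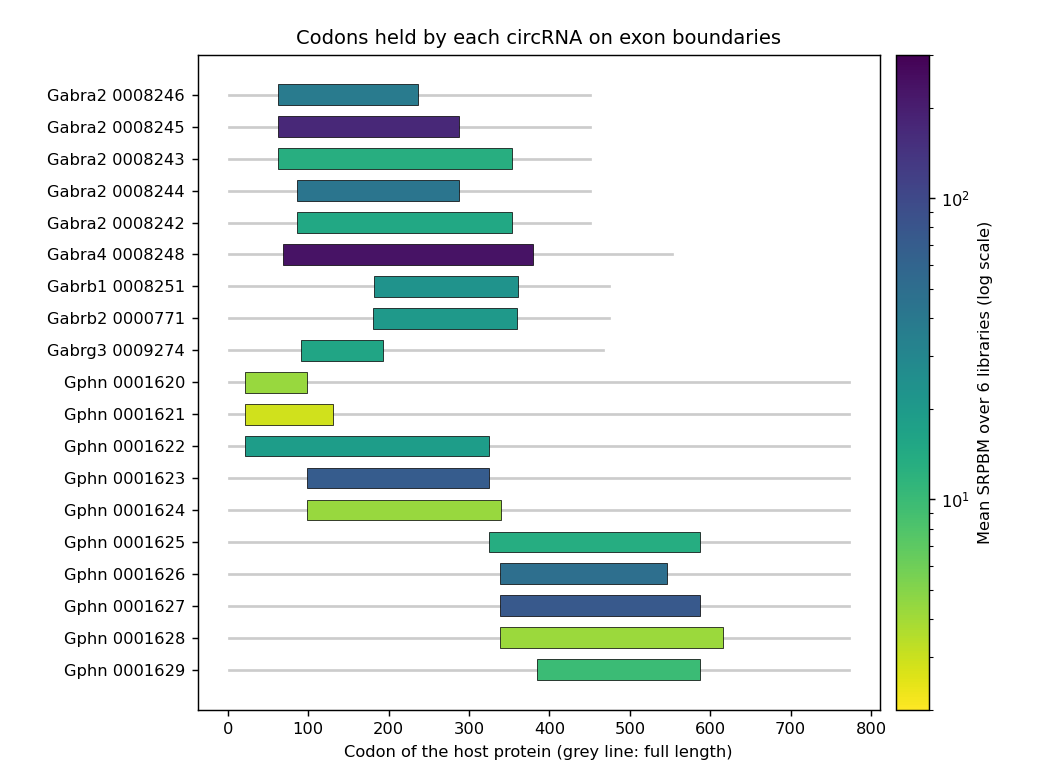
Codons of the host protein held by each of the 19 circRNAs on exon boundaries (horizontal axis, codon number; grey lines, full protein; colour, mean SRPBM over 6 libraries on a log scale). The Gabra2 and Gabra4 circRNAs begin between codons 63 and 86, the Gabrb1 and Gabrb2 circRNAs at codons 182 and 181, and the Gphn circRNAs fall into a set that ends by codon 339 and a set that begins at codon 325 or later.

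Gephyrin binds the glycine and GABA-A receptors and also serves in molybdenum cofactor synthesis. The 10 Gphn circRNAs lay on the plus strand of chr12 and all joined annotated exons of the 23-exon transcript of 772 codons. The leading circRNA, circ_0001627, spanned chr12:78590534-78637579 and joined exons 11 to 17 into 742 nt, holding codons 339 to 586. It measured 76.9, 74.4 and 77.5 SRPBM in Control and 41.3, 105 and 77.9 SRPBM in TLE. The Control libraries lay close together within the range of the TLE libraries, and the log2 fold change was -0.09 (95% interval -0.99 to 0.81).

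A second Gphn circRNA of similar level came from another stretch of the gene. Circ_0001623, at chr12:78454757-78504751, joined exons 5 to 9 into 678 nt and held codons 99 to 324. It measured 68.4, 83.7 and 25.8 SRPBM in Control and 31.0, 96.4 and 121 SRPBM in TLE, and the groups overlapped (log2 fold change 0.34, 95% interval -0.74 to 1.43). Its junction, in the same notation as above, shares no exon end with that of the leading circRNA.
Gphn circ_0001623 (exon 9 to exon 5): tgtccaacaccaaaaGCCACAAAAGAAGTA

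Further Gphn circRNAs reused these ends. The start of exon 11 opened 3 circRNAs with 50.8% of the SRPBM of the host, and the end of exon 17 closed 3 with 38.9%. Circ_0001626, of exons 11 to 16, measured 34.2, 18.6 and 60.3 SRPBM in Control and 51.6, 87.7 and 43.3 SRPBM in TLE (log2 fold change 0.54, 95% interval -0.56 to 1.64). Circ_0001622, of exons 2 to 9, had the longest span of the 21, 161400 bp at chr12:78343352-78504751, for a circle of 908 nt. It measured 25.6, 0 and 25.8 SRPBM in Control and 62.0, 0 and 0 SRPBM in TLE, with overlapping groups. Of the other 6, only circ_0001625 was above 0 in at least 3 libraries, and the remaining 5 had at most 4 reads in a library. The values of all 21 circRNAs are in the plot by library.

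**Figure D3:**
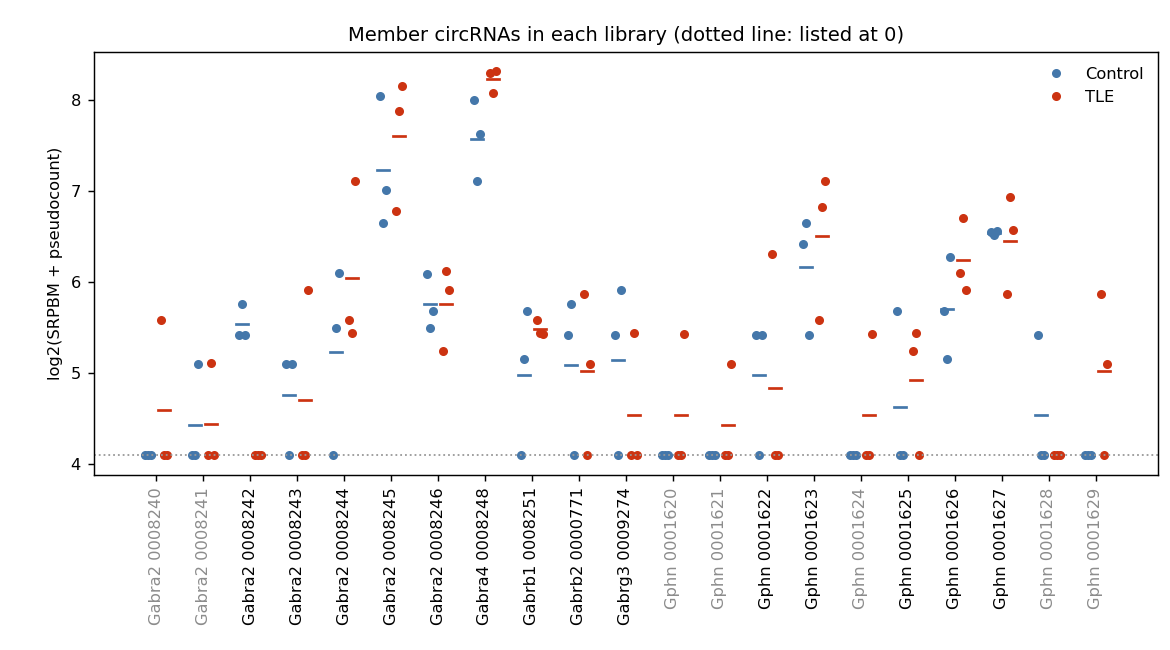
Level of each of the 21 circRNAs in each library (vertical axis, log2(SRPBM + 17.1), with a pseudocount of 17.1; points, libraries; short lines, group means of the log2 values; grey names, circRNAs above 0 in fewer than 3 libraries). The groups are apart for Gabra4 circ_0008248, with TLE above, and for Gabra2 circ_0008242, with TLE at 0.

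Among all 14 circRNAs tested, 8 had a log2 fold change above 0 and 6 below 0, with a median of 0.15, beside a median of 0.17 over all 4271 circRNAs tested. None was called as higher in TLE, where 1.26% of all circRNAs tested were called, and none as lower, where 0.304% were. With the libraries rescaled, 37 circRNAs were called higher and 25 lower, in place of 54 and 13, and the median of all circRNAs moved to 0.01. Unadjusted p in limma was under 0.05 for 2 of the 14, as for 5.2% of all circRNAs tested. One was Gabra4 circ_0008248, higher in TLE like 4.12% of all, and the other Gabra2 circ_0008242, lower in TLE like 1.08%, which was above 0 in the Control libraries alone and had to differ once it was tested. The groups did not overlap for the same 2, as for 11.1% of all, that is 8.94% with TLE above and 2.11% with TLE below. No adjusted p among the 4271 circRNAs was under 0.05 in limma. For 12 of the 14 the 95% interval held 0. Of the 14, 7 had at most 22 reads in all.

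Summed per host, Gabra2 measured 342, 177 and 258 SRPBM in Control and 176, 316 and 476 SRPBM in TLE. Gphn measured 265, 177 and 190 SRPBM in Control and 248, 316 and 329 SRPBM in TLE. Only Control 1 of Gphn lay above a TLE library. The means were 259 ± 82.6 and 322 ± 150 SRPBM for Gabra2, and 210 ± 47.7 and 297 ± 43.4 SRPBM for Gphn (SD, n = 3 each). The log2 fold changes of the sums were 0.24 (95% interval -0.50 to 0.98) for Gabra2 and 0.48 (95% interval -0.16 to 1.12) for Gphn. That of Gabra2 was -0.08 without TLE 3, 0.01 without Control 2, 0.45 without Control 1 and 0.60 without TLE 1. For the 4 hosts with 1 circRNA the sum is that circRNA. In the fit over hosts, Gabra4 had an unadjusted p of 0.0568 in limma and an adjusted p of 0.834, the lowest of the 6.

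No host of the 6 was called in either direction, beside 1.53% called higher and 0.371% called lower among 2157 hosts tested, and none had an unadjusted p in limma under 0.05 (6.17% of all hosts, 5.29% higher and 0.881% lower). Only Gabra4 of the 6 had groups without overlap, with TLE above, as did 10.7% of all hosts, while 1.95% had TLE below and 12.7% either. The median log2 fold change was 0.36 over the 6 hosts and 0.20 over all hosts. After rescaling, the median of all hosts was 0.02, and Gabra4, Gphn and Gabra2 stood at 0.45, 0.27 and 0.02.

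**Figure D4:**
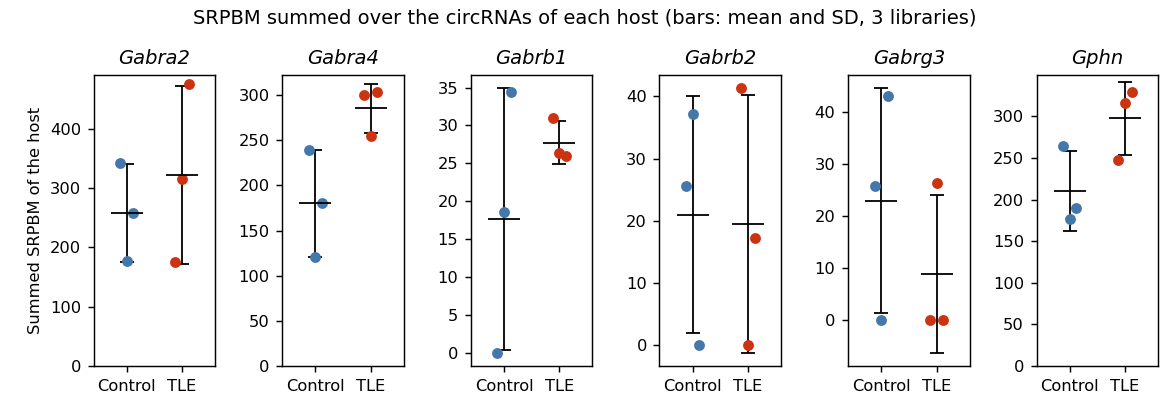
SRPBM summed over the circRNAs of each host (vertical axes, SRPBM, scaled per host; points, libraries; bars, mean and SD of 3 libraries per group). Gabra4 is the only host of the 6 in which all TLE libraries, 254 to 303 SRPBM, lie above all Control libraries, 121 to 239 SRPBM.

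**Figure D5:**
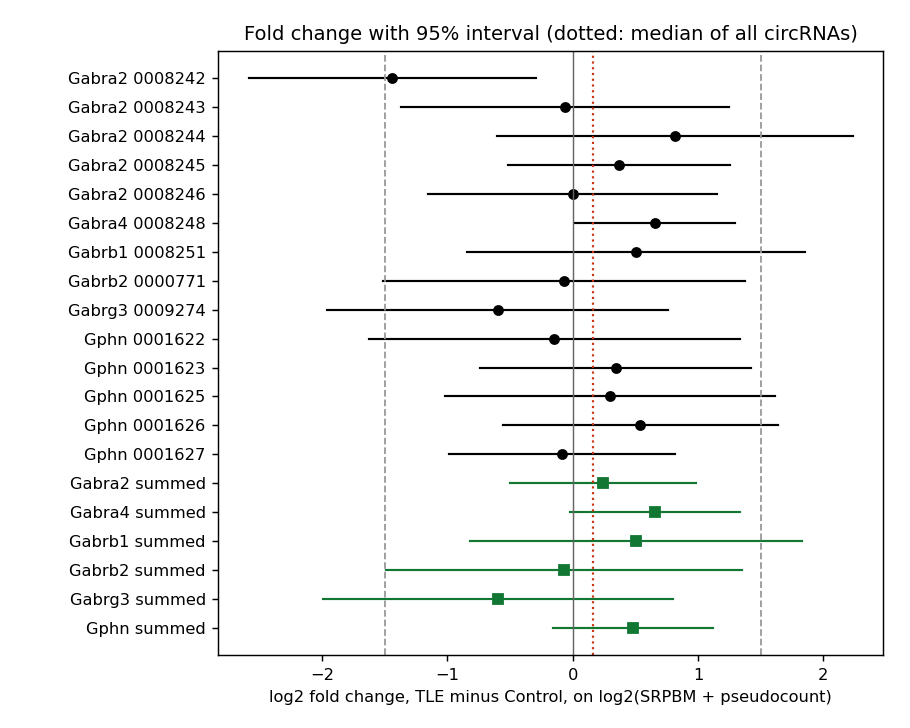
Log2 fold change (TLE minus Control, on log2(SRPBM + 17.1)) with its 95% interval for the 14 circRNAs tested (circles) and the 6 host sums (squares). Dashed lines mark the threshold of 1.5 in either direction and the dotted line the median of all circRNAs, 0.17. The interval of Gabra4 circ_0008248 lies to 1 side of 0. That of Gabra2 circ_0008242 does too, but this circRNA was tested through its Control libraries alone, so its groups had to differ.

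Summed over the 6 hosts, the circRNAs measured 897, 530 and 706 SRPBM in Control and 795, 938 and 1151 SRPBM in TLE. The means were 711 ± 184 and 961 ± 179 SRPBM (SD, n = 3 each), a ratio of 1.35, and Control 1 lay above TLE 1 (two-sided exact permutation test, p = 0.2, where 3 against 3 libraries allow no p below 0.1). The difference of 250.3 SRPBM was 160 SRPBM without Control 2, 156 SRPBM without TLE 3 and 114 SRPBM after rescaling. As a share of all SRPBM in the library, the sum was 0.255, 0.160 and 0.196% in Control and 0.237, 0.229 and 0.235% in TLE. Gphn made up 29.5, 33.3 and 26.8% of the sum in Control and 31.2, 33.6 and 28.6% in TLE (exact permutation test, p = 0.7). The proportion of scaffold to receptor circRNAs thus overlapped between the groups.

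Detection ranges also overlapped between the groups. Control libraries listed 13, 10 and 13 of the 21 circRNAs above 0, and TLE libraries listed 13, 11 and 14 (exact permutation test, p = 0.7). Of the 21, 6 were above 0 in all libraries (28.6%, beside 13.9% of all circRNAs) and 5 in a single library (23.8%, beside 45.4%). At least 3 libraries listed 14 of them (66.7%, beside 38.2%). Their median of 11 reads over the 6 libraries exceeded the median of 5 reads over all circRNAs. The part of read number in these shares was not tested, and they are given as a description.

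The 21 circRNAs shared features that did not enter their choice. The 19 on exon boundaries were all fully coding, as were 82.6% of such circRNAs in the table. Their median spliced length was 669 nt beside 608 nt, and they held a median of 5 exons beside 4. Their ends lay far apart, with a median genomic span of 41212 bp beside 14424.5 bp. Spans over 100 kb were found in 3 of the 19, all of Gphn, beside 344 of 9216 such circRNAs in the table. Of these Gphn circRNAs, circ_0001621 and circ_0001624 were above 0 in TLE 3 alone. The introns next to them were long, with medians of 57174 nt upstream (all, 10288 nt) and 26447 nt downstream (all, 8684.5 nt). The spliced length was a multiple of 3 in 4 of the 19 (21.1%, beside 38.0%). Circles of 1 host share ends, so these values are not independent.

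Set beside the ionotropic glutamate receptors, the excitatory counterpart of the GABA-A receptor, the 6 hosts differed between the groups by less than the spread of the libraries. The log2 ratio of their sum to the sum of the glutamate receptor hosts (15 of 18 with a circRNA listing no other host, 59 circRNAs) was -0.83, -1.41 and -1.08 in Control. It was -1.31, -0.72 and -1.01 in TLE. The difference of 0.09 was smaller than the SD within either group, 0.29 and 0.30 (exact permutation test, p = 0.7). Of the 9 glutamate receptor hosts tested, 8 had a log2 fold change above 0, with a median of 0.45, and none was called or had an unadjusted p in limma under 0.05. Grik2 and Grin2a had every TLE library above every Control library, as did 10.7% of all hosts. Grik2 measured 197, 186 and 241 SRPBM in Control and 289, 281 and 320 SRPBM in TLE. Grin2a measured 299, 195 and 284 SRPBM in Control and 372, 307 and 389 SRPBM in TLE. Both were named after their values were seen.

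Of 49 other genes of the inhibitory synapse, 18 hosted 43 circRNAs listing no other host and 13 could be tested as hosts. The 49 genes included other GABA-A and GABA-B receptor subunits, the dystrophin complex and GABA handling. None was called or had an unadjusted p in limma under 0.05. The log2 fold change was above 0 in 9 of 13, with a median of 0.23 and a range of -0.42 to 0.90. The highest was Gabra5, the alpha5 subunit of extrasynaptic receptors, with 25.6, 18.6 and 34.5 SRPBM in Control and 51.6, 61.4 and 77.9 SRPBM in TLE. The adjusted p of Gabra5 in limma was 0.854. Of the 13 hosts tested, 2 had every TLE library above every Control library, Gabra5 and Gabbr2, a subunit of the GABA-B receptor, as did 10.7% of all hosts. Gabbr2 measured 59.8, 27.9 and 25.8 SRPBM in Control and 62.0, 78.9 and 95.2 SRPBM in TLE. Both were picked from this list after their values were seen.

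The hosts whose profile over the 6 libraries was most like that of the summed 6 hosts, among 1015 hosts of at least 60 SRPBM, were Cntn5, Brsk2 and Pde4d. Their centred log2 values differed from it by a root mean square of 0.0966, 0.108 and 0.119. Among the 6 hosts, those of Gphn, Gabra4 and Gabra2 differed from the sum they belong to by 0.115, 0.200 and 0.268. This likeness is over 6 libraries of unequal depth and is a description.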

How the data were processed

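Cortex RNA from 3 Control and 3 TLE mice was depleted of ribosomal RNA and sequenced from directional libraries. The authors identified circRNAs with CIRI on BWA-MEM alignments (build mm10 per the labels) and deposited 1 normalized signal per circRNA and library, SRPBM, in which junction reads are divided by mapped reads. The 6 deposited tables were identical, and 1 was used. The submitters' notes list DESeq2, which needs counts and was not used here.

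The 21 circRNAs, the gene lists and the tests were chosen with earlier results of these data known. SRPBM, as deposited and summed per host, was compared with limma 3.58.1 in R 4.3.3 (two-sided, variance trend in eBayes) after log2(SRPBM + 17.1) transformation, for circRNAs or hosts above 0 in at least 3 of 6 libraries. This scale understates changes of low circRNAs. A call needed a log2 fold change of at least 1.5 and an unadjusted p under 0.05, the threshold of the study, and Benjamini-Hochberg adjusted p over all circRNAs or hosts are given beside it. The fit was tested on simulated reads that varied by sampling alone, with large changes planted in circRNAs of many reads. That test cannot tell how the fit performs on circRNAs of few reads or at the spread between these libraries. For sums, shares and ratios, an exact permutation test over libraries was run in both directions (scipy 1.17.1). Replicates were separate libraries, no pair agreed within sampling noise, and no batch is given in the labels. Hosts were summed over rows listing 1 host. Ends were placed on GENCODE M21 exons (GRCm38), from which junctions were read.

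Named with values were the leading circRNA of each host, those whose groups did not overlap, those with the longest and shortest span, those sharing an end with the leading one, and the 3 hosts of nearest profile. Further circRNAs of Gabra2 and Gphn were added after their values were seen. Alternatives changed the pseudocount, filter, scaling, variance trend, threshold and libraries, and added the replicate number as a block.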

Additional observations from a re-analysis of the deposited data

How the results depend on the processing

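The count of circRNAs of the 6 hosts called lower in TLE went from 0 to 1, which was Gabra2 circ_0008242, in some settings. These were a pseudocount of 8.55 SRPBM (log2 fold change -2.14) or 1 SRPBM (-4.91), rescaling of the libraries (-1.52) and a threshold of 1. This circRNA was tested through its Control libraries alone, so its groups had to differ and these calls are not read as a change. Among all 4271 circRNAs tested, 47, 42 and 25 were called lower with 8.55 SRPBM, with 1 SRPBM and after rescaling. At a threshold of 1 the number among all circRNAs was not counted. It lies between the 13 called lower at 1.5 and the 46 lower with an unadjusted p in limma under 0.05. The count called higher stayed at 0 in the settings run. Without each library in turn, the log2 fold change of the Gabra2 sum ran from -0.080 (without TLE 3) to 0.60, that of Gabrb2, sum and circRNA alike, from -0.57 to 0.39 (above 0 without Control 1, Control 2 or TLE 2), that of Gphn circ_0001622 from -0.88 to 0.22 and that of Gphn circ_0001627 from -0.33 to 0.21 (above 0 without TLE 1). With circRNAs above 0 in at least 3 libraries alone, the TLE minus Control difference was -0.0048 for the log2 ratio to the glutamate receptor hosts, -1 for the number listed above 0 and -0.888 percentage points for the share of Gphn. Without each library in turn these differences ran from -0.058 to 0.24, from -0.333 to 1.5 and from -0.300 to 2.95. None of these differences passed its test, so their signs are not firm, and the cause of the changes was not tested. Over all circRNAs, 54 were called higher and 13 lower, 121 and 47 with a pseudocount of 8.55 SRPBM, 88 and 42 with 1 SRPBM, and 62 to 104 and 13 to 49 without each library in turn. For hosts, 33 and 8 became 60 and 17, 38 and 13, and 35 to 59 and 5 to 22, and 22 and 11 after rescaling. Without the filter on low values, 9 circRNAs of the whole table had an adjusted p under 0.05 in limma, none of them of the 6 hosts (smallest 0.597). Correlations of deviations were 0.0192, 0.0139 and 0.0103 for libraries of the same replicate number. They ran from -0.0242 to 0.00922 for libraries of different numbers. All were small, and the libraries were not treated as paired. With the replicate block the counts were again 54 and 13 for circRNAs and 33 and 8 for hosts. Among the circRNAs of the 6 hosts they were 0. The log2 fold changes were the same, with an unadjusted p in limma of 0.0408 for Gabra4 circ_0008248. Few reads per circRNA and the spread between 3 libraries per group both limit these values, and they were not ranked.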

Other observations

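In the deposited table, 3 circRNAs without a listed host lay inside these genes and were not counted among the 21. Circ_0008247, at chr5:71057549-71058258, lay within Gabra2 but on the opposite, plus strand. It measured 42.7, 0 and 43.1 SRPBM in Control and 31.0, 43.8 and 34.6 SRPBM in TLE, 22 reads in all, with overlapping groups. Circ_0008249 and circ_0008250 lay within Gabrb1 on its own strand, with 2 and 4 reads, each in a single library.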
